A study of Mus musculus with 6 samples.

Results

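Endothelial cells, which line the blood vessels of the developing cortex, were described through 10 of their genes. These were the receptor kinase genes Tie1, Tek, Kdr and Flt1, the junction and adhesion genes Cdh5, Pecam1, Cldn5 and Esam, and the surface glycoprotein genes Emcn and Eng. All 15 probe sets given to 1 of these genes alone in the platform annotation were taken, of 45037 on the array. Flt1 has 4 of them, Cdh5 and Eng have 2 each and the other genes have 1 each. The genes are a listed set chosen with earlier results of these data known, not by a threshold.

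The 6 Affymetrix arrays each held biotin-labelled cRNA from 250 ng of total RNA of dorsal telencephalon, the part of the forebrain that forms the cerebral cortex, at E14.5, where E counts days of embryonic development. All embryos were labelled male and C57BL\6. The 3 wild type (WT) arrays were compared with 3 conditional knockout (cKO) arrays, labelled as a knockout of the histone methyltransferase ESET (gene Setdb1) made with Emx2Cre. The design text gives 3 male embryos per genotype, taken here as 1 embryo per array, which was not checked independently. Emx2 is a gene of dorsal forebrain progenitors, a neural lineage, whereas endothelial cells come from the mesoderm and enter the neural tissue from outside. The deletion in endothelial cells was not measured, and the labels used here do not say whether WT embryos carried Cre.

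Vessels grow into the embryonic cortex from a plexus on its surface, guided by vascular endothelial growth factor (VEGF) made by neural progenitors. VEGF binds the receptors encoded by Kdr and Flt1, while the angiopoietins bind TIE2, the product of Tek, and the related receptor encoded by Tie1 tunes that signal. Brain endothelium then seals its junctions with VE-cadherin, claudin-5 and other adhesion proteins, which makes the blood-brain barrier.

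Median intensities per array ran from 91.1 to 119, and the share of probe sets below 16, the pseudocount added before log2, was 16.1% to 20.3%. Setdb1 on its brightest probe set was 1126 ± 81.9 (SD, n = 3) in WT and 633 ± 115 in cKO, without overlap (limma adjusted p = 0.237). The deleted exons are not named in the labels, so that probe set may lie outside the deletion. The arrays numbered 3 stood apart and went against their labels in part. Xist, transcribed from an inactive X chromosome, was 17294 on WT 3 and 8811 on cKO 3 and at most 59.0 elsewhere. The Y-linked gene Eif2s3y was 22.2 on WT 3 and 961 on cKO 3 and at least 1927 elsewhere. High Xist and low Eif2s3y on WT 3 go against its male label. With high Xist and an intermediate Eif2s3y together, cKO 3 may not hold RNA of 1 male embryo alone. The cause was not tested. The embryonic globin Hba-x was 20068 on WT 3 and 19913 on cKO 3 and at most 513 elsewhere. The brightest probe set of each of the 10 genes and the medians of most marker lists are therefore also given without both of these arrays.

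Of the 10 genes, 8 had a lower mean log2 value in cKO on their brightest probe set (9 with quantile normalization or centred medians, where Eng turned), and 4 of them, Tie1, Emcn, Cldn5 and Esam, were lower on every cKO array than on any WT array. The median difference over the 10 genes was -0.25 (log2, cKO minus WT), against 0.0068 over all 18193 genes, of which 48.8% were below 0. None of the differences passed the test. Of the 15 probe sets, 0 had an adjusted p under 0.05 in limma, where 0.275% of all probe sets did. Those were 23 lower (0.0511%) and 101 higher (0.224%) in cKO, or 41 and 97 with arrays centred on their medians. With an unadjusted p below 0.05, 4 of the 15 were lower and 0 higher, against 3.33% and 4.57% of all probe sets. The same 4 were the ones whose groups did not overlap, where 6.07% of all probe sets had every cKO array below every WT array and 7.47% had every cKO array above. In bulk tissue, fewer endothelial cells and less RNA per endothelial cell cannot be told apart.

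**Figure D1:**
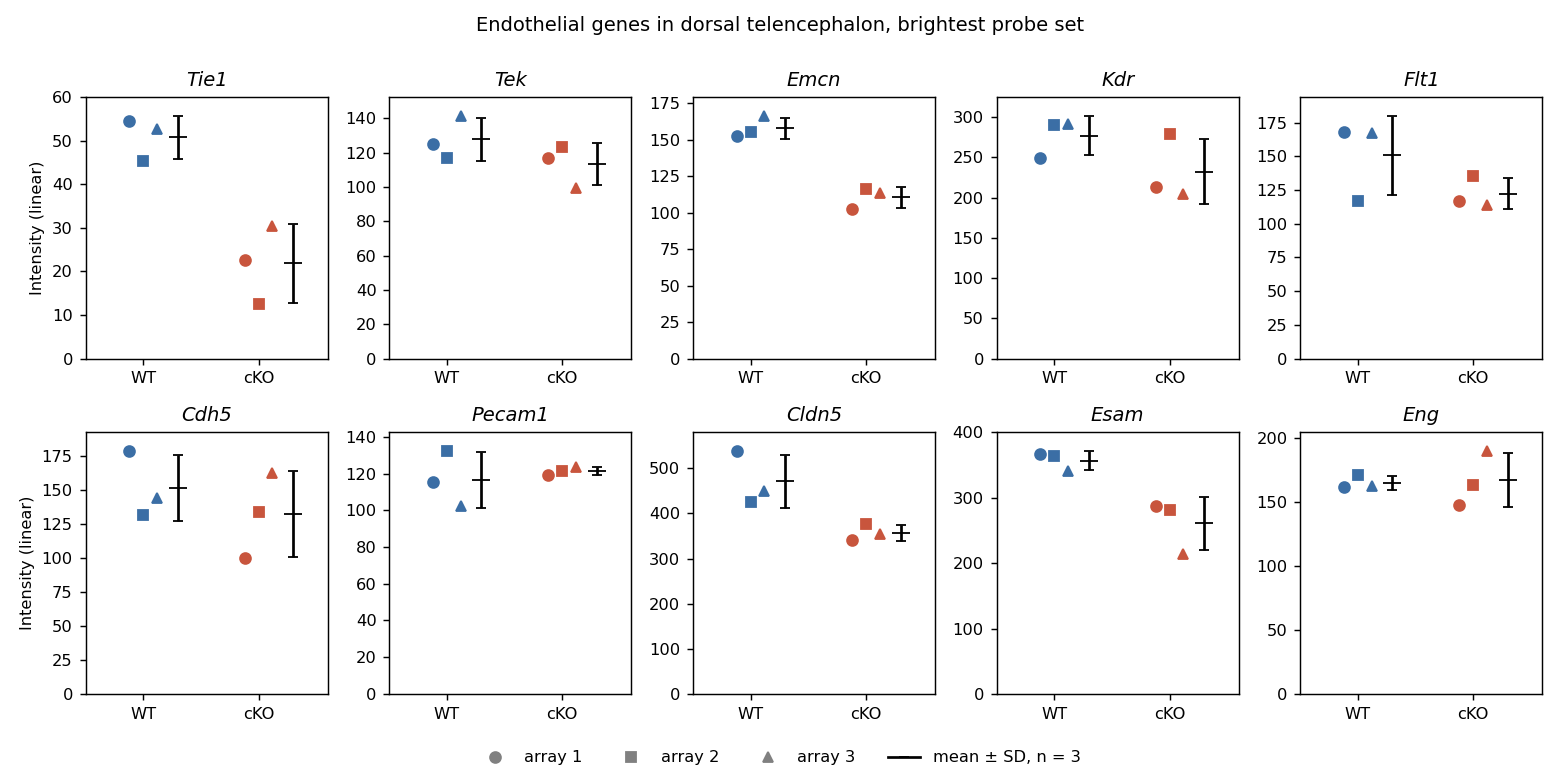
Intensity (linear scale, from 0) of the brightest probe set of each of the 10 genes on the 3 WT and 3 cKO arrays, with marker shape giving the array number and black bars the mean ± SD of 3 arrays. Tie1, Emcn, Cldn5 and Esam separate the groups, with Tie1 at 45.3 to 54.5 in WT and 12.5 to 30.5 in cKO, while the groups of the other 6 genes overlap.

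Tie1 encodes an orphan receptor tyrosine kinase of endothelial cells that forms complexes with TIE2. Its intensity was 54.5, 45.3 and 52.6 on WT 1, 2 and 3 and 22.6, 12.5 and 30.5 on cKO 1, 2 and 3. Every cKO array was thus below every WT array, and cKO 2 was the lowest of the 6. The mean went from 50.8 ± 4.89 to 21.8 ± 8.99 (SD, n = 3), which is 57.0% lower. On the log2(intensity + 16) scale the difference was -0.85 (SE 0.21, 95% interval -1.35 to -0.34, limma adjusted p = 0.307). The probe set was dim in both groups, its mean log2 level being above that of only 31.2% of all probe sets. The cKO values lie near the pseudocount, which sets the size of this difference, at -1.26 with a pseudocount of 1 and -0.42 with 64. Without both arrays numbered 3 it was -0.99.

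Tek encodes TIE2, the receptor of the angiopoietins. Tek was 125, 117 and 141 on WT 1, 2 and 3 and 117, 123 and 99.4 on cKO 1, 2 and 3. The groups overlapped, and the lowest value was that of cKO 3. The difference was -0.15 (SE 0.15, 95% interval -0.52 to 0.21, limma adjusted p = 0.921), and -0.0052 without both arrays numbered 3. The difference of Tie1 minus that of Tek was -0.69 on the log2 scale (exact permutation test, two-sided, p = 0.1, the smallest that 3 against 3 arrays allow). This pair was set side by side after its values were seen. The ratio of Tie1 to Tek intensity was 0.437, 0.387 and 0.372 on the WT arrays and 0.193, 0.101 and 0.306 on the cKO arrays, without overlap. This ratio compares signals of 2 probe sets across arrays and is no ratio of transcript numbers.

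Emcn encodes endomucin, a sialoglycoprotein on the luminal surface of venous and capillary endothelium. Emcn was 153, 155 and 166 on WT 1, 2 and 3 and 102, 116 and 113 on cKO 1, 2 and 3. The 6 arrays fell into separate ranges by genotype, with little spread inside each. The mean was 30.0% lower in cKO, a difference of -0.46 (SE 0.13, 95% interval -0.78 to -0.14, limma adjusted p = 0.406). Fits that left out 1 array gave -0.49 to -0.41, so no single array carried the difference.

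Cldn5 encodes claudin-5, the main sealing protein of tight junctions in brain endothelium. Cldn5 was 537, 426 and 450 on WT 1, 2 and 3 and 341, 376 and 354 on cKO 1, 2 and 3. WT 1 was the highest array, and the gap between the groups lay between WT 2 and cKO 2. The mean was 24.2% lower in cKO, a difference of -0.38 (SE 0.15, 95% interval -0.74 to -0.02, limma adjusted p = 0.611). Esam encodes an immunoglobulin-family adhesion molecule of endothelial tight junctions. Esam was 367, 363 and 341 on WT 1, 2 and 3 and 287, 281 and 214 on cKO 1, 2 and 3. The WT arrays lay close together and cKO 3 was the lowest array. Its mean was 26.9% lower, a difference of -0.44 (SE 0.16, 95% interval -0.83 to -0.05, limma adjusted p = 0.567), and -0.34 without both arrays numbered 3.

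The sequences upstream of these genes are shown because ETS transcription factors, which bind a GGAA core, drive many endothelial promoters. RefSeq (GRCm38.p6) promoter entries matched 7 members, namely Tie1, Tek, Emcn, Kdr, Flt1, Cldn5 and Eng. The first 3 sequences belong to genes whose groups did not overlap, and Eng is shown as a member whose groups overlapped. Its difference was 0.0080 on its brightest probe set and 0.29 on its other, which does not show equality. Each run is the 250 bases before the gene's start, 5′ to 3′ on the gene's strand, with AGGAAG or its reverse complement CTTCCT in capitals. They lie at chr4:118489850-118490099 (minus strand), chr3:137340828-137341077 (plus), chr16:18776597-18776846 (plus) and chr2:32646345-32646594 (plus).
Tie1: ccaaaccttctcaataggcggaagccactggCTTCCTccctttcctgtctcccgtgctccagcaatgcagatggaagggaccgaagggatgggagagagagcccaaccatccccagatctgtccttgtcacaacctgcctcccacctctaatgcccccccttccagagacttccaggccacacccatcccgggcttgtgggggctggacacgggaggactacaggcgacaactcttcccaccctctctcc
Emcn: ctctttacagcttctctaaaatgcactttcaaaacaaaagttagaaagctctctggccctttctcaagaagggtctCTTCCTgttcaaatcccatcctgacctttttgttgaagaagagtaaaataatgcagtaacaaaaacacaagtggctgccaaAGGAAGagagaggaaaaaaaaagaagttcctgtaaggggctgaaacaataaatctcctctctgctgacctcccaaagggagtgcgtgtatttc
Cldn5: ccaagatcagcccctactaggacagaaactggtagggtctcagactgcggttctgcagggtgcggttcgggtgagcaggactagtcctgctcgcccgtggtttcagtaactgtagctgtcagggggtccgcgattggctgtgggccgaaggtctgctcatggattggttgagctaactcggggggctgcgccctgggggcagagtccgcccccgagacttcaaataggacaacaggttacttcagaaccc
Eng: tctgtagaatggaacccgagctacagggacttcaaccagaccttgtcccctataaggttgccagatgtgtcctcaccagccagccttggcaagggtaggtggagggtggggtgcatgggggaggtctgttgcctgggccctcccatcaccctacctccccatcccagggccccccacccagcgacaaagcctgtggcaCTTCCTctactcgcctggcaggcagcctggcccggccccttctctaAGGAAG

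AGGAAG on either strand was found in 4 of the 7 member promoters (Tie1, Emcn, Flt1 and Eng) and in 29.5% of all 32851 promoter entries over the same 250 bases. Tie1 held 1 match, and Emcn, Flt1 and Eng 2 each. The motif of GATA factors, searched as AGATAA on both strands, was found in 0 of the 7, where 9.99% of all entries held it. Of the genes whose groups were separate, Tie1 and Emcn held a match and Cldn5 had none in this window. Among the others, Flt1 and Eng held matches and Tek and Kdr had none. AGGAAG is longer than the GGAA core, and other GGAA cores in these windows were neither counted nor put in capitals. A promoter without a match, such as that of Tek or Kdr, can therefore still hold the core. Esam had no promoter entry. Whether the match goes with the differences was not tested, and 7 promoters are too few to show it. A match describes the letters and is no evidence of binding.

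Kdr and Flt1 encode the VEGF receptors VEGFR2, the main signalling receptor, and VEGFR1, which also acts as a decoy. Kdr was 249, 291 and 292 on WT 1, 2 and 3 and 214, 279 and 205 on cKO 1, 2 and 3. cKO 1 and cKO 3 were below all WT arrays, while cKO 2 lay inside the WT range. The difference was -0.25 (SE 0.17, 95% interval -0.66 to 0.16, limma adjusted p = 0.859). It was -0.38 without cKO 2 and -0.13 without both arrays numbered 3. The brightest Flt1 probe set, 1451756_at, was 168, 117 and 168 on WT 1, 2 and 3 and 117, 136 and 114 on cKO 1, 2 and 3. WT 2 was as low as the cKO arrays, so the groups overlapped. The difference was -0.26 (SE 0.18, 95% interval -0.70 to 0.18, limma adjusted p = 0.862). It was -0.41 without WT 2 and -0.14 without both arrays numbered 3. The other 3 Flt1 probe sets were at -0.12 (1419300_at), -0.31 (1454037_a_at) and 0.01 (1440926_at), all with overlap. The last of these had means of 33.0 in WT and 31.5 in cKO and turned negative with quantile normalization (-0.05) or centred medians (-0.04).

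Cdh5 encodes VE-cadherin, the adherens junction protein of endothelium, and its probe sets disagreed. On 1433956_at it was 178, 132 and 144 on WT 1, 2 and 3 and 99.7, 134 and 163 on cKO 1, 2 and 3. The cKO arrays spread across and below the WT range. The difference was -0.19 (SE 0.21, 95% interval -0.70 to 0.32, limma adjusted p = 0.936). Its size depended on single arrays, at -0.02 without cKO 1, -0.08 without WT 1, -0.34 without cKO 3 and -0.36 without both arrays numbered 3. The dimmer probe set 1422047_at was at 0.28 (SE 0.25), with means of 25.6 in WT and 35.3 in cKO, and both probe sets had overlapping groups.

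Pecam1 and Eng had the smallest differences among the brightest probe sets. Pecam1, the platelet and endothelial adhesion molecule CD31, was 115, 132 and 102 on WT 1, 2 and 3 and 119, 121 and 123 on cKO 1, 2 and 3. The cKO values lay inside the WT range, at a difference of 0.06 (SE 0.15, 95% interval -0.29 to 0.41, limma adjusted p = 0.985). Eng, or endoglin, a co-receptor for TGF-beta and BMP ligands, was 162, 171 and 162 on WT 1, 2 and 3 and 148, 163 and 189 on cKO 1, 2 and 3. The cKO arrays lay on both sides of the WT arrays, with a difference of 0.0080 (SE 0.15, 95% interval -0.35 to 0.36, limma adjusted p = 0.999) that turned to -0.02 with quantile normalization and -0.04 with centred medians. The other Eng probe set, 1432176_a_at, was at 0.29 (SE 0.21) with overlap. The intervals of Pecam1 and Eng include a difference of the size seen for Cdh5 or Kdr, so equality of the groups is not shown. Without both arrays numbered 3, Pecam1 was at -0.035 and Eng at -0.091 on these probe sets.

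**Figure D2:**
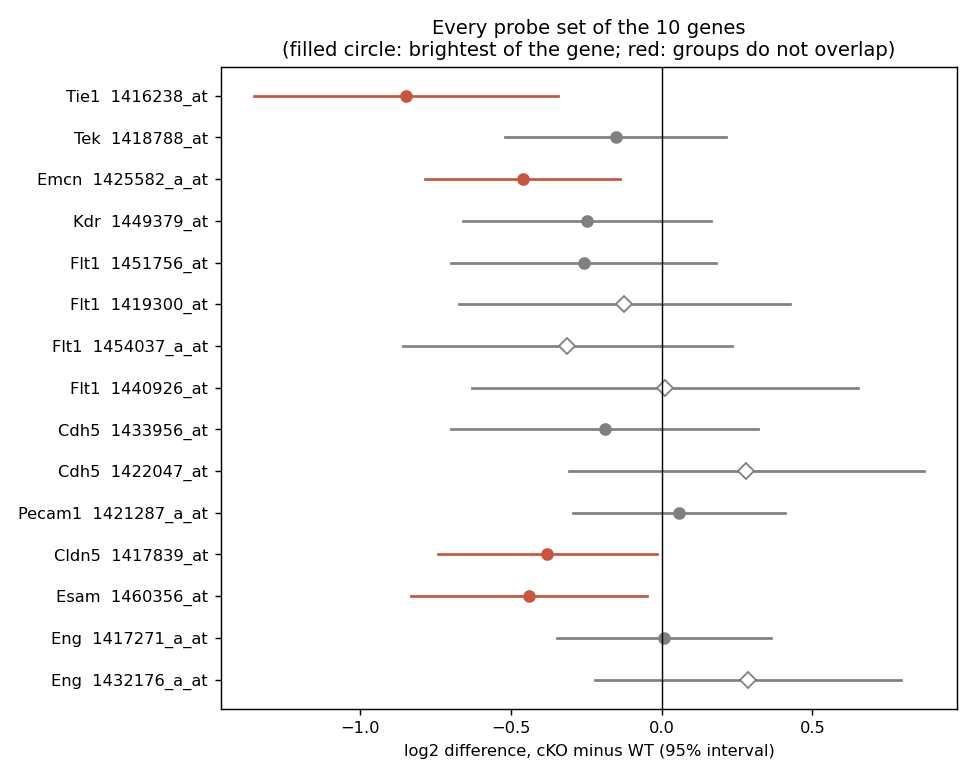
Log2 difference (cKO minus WT, x axis) with its 95% interval from limma for each of the 15 probe sets, with filled circles for the brightest probe set of a gene, open diamonds for its others and red where the groups do not overlap. The intervals of Tie1, Emcn, Cldn5 and Esam lie below 0, and those of the other 11 probe sets include 0.

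The arrays were not equal in how many members were low. Of the 10 genes, 7 were below the lowest WT array on cKO 1, 4 on cKO 2 and 7 on cKO 3. The 4 genes without overlap are in each of these counts by definition, and they make up the whole count on cKO 2. The matching share over all genes was not computed, so the counts have no background. The median of the 10 log2 values relative to the WT means was -0.33 on cKO 1, -0.13 on cKO 2 and -0.37 on cKO 3, and from -0.07 to 0.02 on the WT arrays. Cldn5 and Esam, both among the genes without overlap, were the brightest of the 10 probe sets and weigh most in their summed intensity. That sum was 2108, 1949 and 2018 on WT 1, 2 and 3 and 1568, 1742 and 1606 on cKO 1, 2 and 3, without overlap. Tie1 went against this order, since it was lowest on cKO 2, where the sum of the 10 was the highest of the cKO arrays.

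The count of members at an unadjusted p under 0.05 depended on single arrays. It was 4 of 10 with all arrays (3.8% of all genes were lower in cKO by this rule, and 0.0824% at the adjusted threshold), 2 without WT 1, WT 3 or cKO 3, 3 without cKO 1 or cKO 2, and 4 without WT 2. Without both arrays numbered 3 it was 1, Tie1, although with fewer arrays a fit also has less power. All 10 genes were then below 0, but Tek (-0.0052), Pecam1 (-0.035) and Eng (-0.091) were close to it. The median over all probe sets was 0.013 in that fit. For the fits with arrays left out, the shares over all genes were not computed. The count of members was 2, Tie1 and Emcn, with arrays centred on their medians. The 4 genes without overlap were the same under quantile normalization and centred medians (background 7.64% of genes in the main setting, 8.43% and 8.16% in these).

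The angiopoietin and TIE pathway was followed through the other 4 genes of its list. Angpt1, which encodes the ligand that activates TIE2 and stabilises vessels, was 71.5, 84.9 and 140 on WT 1, 2 and 3 and 177, 198 and 164 on cKO 1, 2 and 3. All cKO arrays were above all WT arrays, by 0.81 (SE 0.24, limma adjusted p = 0.414). Ptprb, which encodes the endothelial phosphatase VE-PTP that dephosphorylates TIE2, was 145, 96.6 and 133 in WT and 166, 203 and 202 in cKO, in the order of array numbers. It was likewise higher on every cKO array, at 0.56 (SE 0.19, limma adjusted p = 0.509). Angpt2, the context-dependent antagonist, was at -0.08 and Angpt4 at 0.14, both with overlap. Of these 4 genes 0 passed the adjusted threshold and 2 lay higher with unadjusted p below 0.05, where 4.74% of all genes were. Among the genes of this pathway Tie1 was thus lower in cKO, and a TIE2 ligand and an endothelial phosphatase were higher, each short of the threshold.

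**Figure D3:**
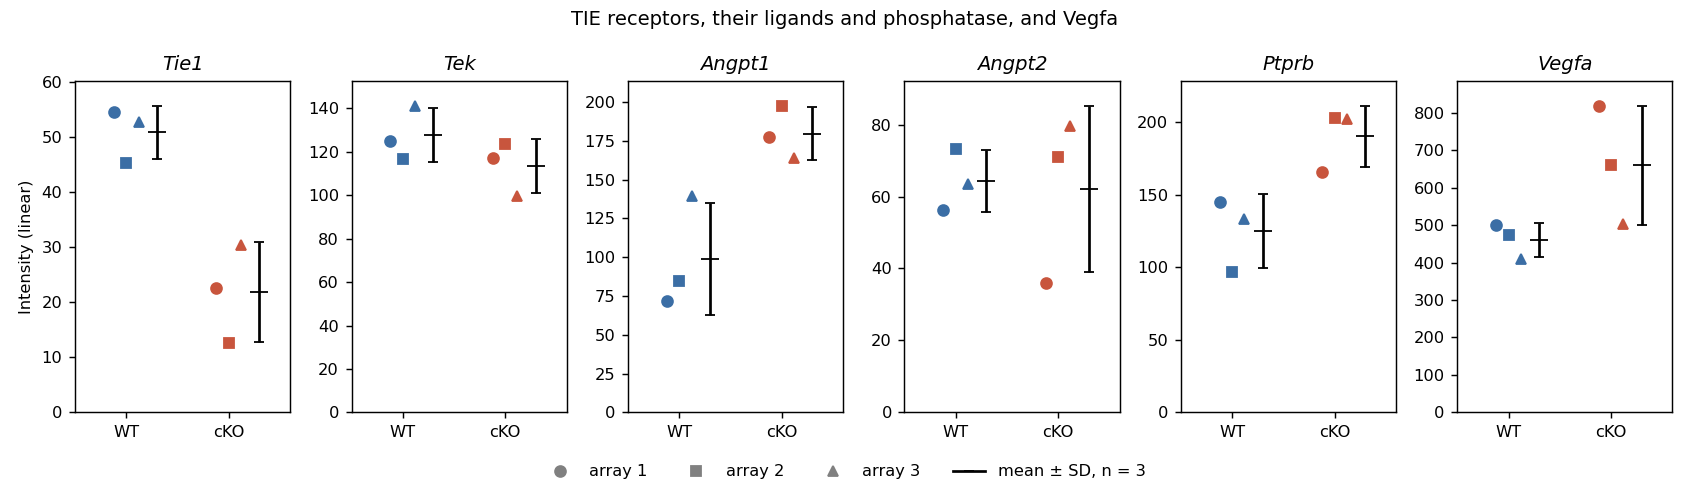
Intensity (linear scale, from 0) of Tie1, Tek, Angpt1, Angpt2, Ptprb and Vegfa on the 3 WT and 3 cKO arrays, with marker shape giving the array number and black bars the mean ± SD. Tie1 is lower and Angpt1, Ptprb and Vegfa are higher on every cKO array than on any WT array, while Tek and Angpt2 overlap.

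Of 10 further genes of VEGF signalling, 8 were below 0 and 2 above, with a median of -0.04, where 48.8% of all genes were below 0. At an unadjusted p under 0.05 there were 0 in either direction, where 3.8% of all genes were lower and 4.74% higher. Among so few genes a count of 0 is near the background. Vegfa, the ligand of Kdr and Flt1, was 499, 473 and 409 on WT 1, 2 and 3 and 819, 660 and 502 on cKO 1, 2 and 3. Its groups just missed each other, cKO 3 being close to WT 1, at 0.48 (SE 0.21, limma adjusted p = 0.665). The co-receptor gene Nrp1, also expressed by neurons, was at -0.01 (SE 0.18), and Flt4, the receptor of lymphatic and sprouting endothelium, at 0.12 (SE 0.21). Vegfd was lower on every cKO array (-0.26), Pgf was at -0.43 and Plxnd1 at -0.42. Of 8 further genes of TGF-beta and BMP signalling in endothelium, 6 were above 0, with a median of 0.13. Acvrl1, the type I receptor that works with endoglin, was at 0.59 (SE 0.27) and Smad6, an inhibitory SMAD, at -0.62 (SE 0.28), with adjusted p of 0.700 and 0.695 in limma. Both had overlapping groups.

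Of 9 further junction and adhesion genes, 5 were below 0, with a median of -0.04. At an unadjusted p under 0.05 there were 0, where 3.8% of all genes were lower and 4.74% higher, so a count of 0 among so few genes is near the background. Jam2 was at -0.21, Cd34 at -0.23 and Icam2 at -0.28, all with overlap, and Jam3, which neural cells also express, was higher on every cKO array (0.15). Tjp1 was at 0.16 and Ocln at 0.09.

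Among 21 other endothelial markers, 15 were below 0 and 6 above, with a median of -0.31. At an unadjusted p under 0.05, 4 were lower and 1 higher, against 3.8% and 4.74% of all genes. Of this list 0 passed adjustment, and 1 did with dim probe sets left out. Its median without both arrays numbered 3 was -0.24. The groups did not overlap in 6 that were lower and 1 that was higher, against 7.64% and 7.9% of all genes. Ramp2, the adrenomedullin co-receptor of vessels, was 440, 385 and 422 on WT 1, 2 and 3 and 235, 251 and 263 on cKO 1, 2 and 3. This gap between the groups was wide against the spread within them, at -0.70 (SE 0.14, limma adjusted p = 0.179). Aplnr, the apelin receptor, was at -0.64 (SE 0.17), Mmrn2, an endothelial matrix protein, at -0.47 (SE 0.17) and Ecscr, an endothelial surface protein, at -0.43 (SE 0.13). S1pr1, the sphingosine-1-phosphate receptor, which neural progenitors also express, was higher on every cKO array, at 0.35 (SE 0.14).

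Of 16 endothelial transcription factor genes, 14 were below 0 and 2 above, with a median of -0.32, which was -0.17 without cKO 1 and -0.35 without both arrays numbered 3. At an unadjusted p under 0.05, 1 of the 16 was lower, where 3.8% of all genes were, a share near the background. This was Sox17, of arterial endothelium, at 169, 104 and 156 on WT 1, 2 and 3 and 93.6, 76.5 and 105 on cKO 1, 2 and 3, where WT 2 and cKO 3 overlapped. Its difference was -0.54 (SE 0.22, limma adjusted p = 0.613). Sox18 was at -0.48, Sox7 at -0.69 and the hypoxia-inducible factor gene Epas1 at -0.57, all with overlap. The ETS family genes Erg and Ets1 were lower on every cKO array, at -0.66 (SE 0.42) and -0.29 (SE 0.17). For Erg the separation was narrow, with cKO 2 at 73.4 and the lowest WT array at 73.7, while cKO 1 was at 12.5.

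Vascular Notch and ephrin genes had 8 of 11 above 0 and a median of 0.06, which turned to -0.01 with quantile normalization and was 0.10 without both arrays numbered 3. Several are also expressed by neural progenitors or neurons. Jag1, a Notch ligand, was at 0.61 (SE 0.16, limma adjusted p = 0.355) and Efnb2, the ephrin ligand of arterial cells, at -0.37 (SE 0.15, limma adjusted p = 0.615), each without overlap. Nr2f2, a factor of venous identity, was at 0.23 and Hey1 at -0.12, both with overlap.

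The barrier and Wnt list had 14 of 20 genes below 0 and a median of -0.09, and unadjusted p was below 0.05 for 4 lower and 2 higher genes, against 3.8% and 4.74% of all genes. The median was -0.03 without cKO 2, -0.17 without WT 2 and -0.07 without both arrays numbered 3. Wnt7b, a ligand from neural progenitors and neurons that induces brain vessels, was 2176, 2061 and 2021 on WT 1, 2 and 3 and 1496, 1383 and 1506 on cKO 1, 2 and 3. The groups were well apart, at -0.51 (SE 0.13, limma adjusted p = 0.335). Slco1c1, the thyroxine transporter of brain endothelium, was at -0.65 (SE 0.21) and Lef1, the transcription factor of the Wnt response, at -0.49 (SE 0.17), each also without overlap. Wnt7a was at -0.02, the Wnt target Axin2 at 0.18 and the barrier gene Mfsd2a at -0.16. Abcg2, an efflux transporter also found in neural stem cells, was higher at 1.59 (SE 0.21, limma adjusted p = 0.0541), and Slc7a5, an amino acid transporter, at 0.88 (SE 0.17). Of this list 0 genes passed in the main setting, 1 with a pseudocount of 64, with array weights or with the gene table fitted on its own, and 2 with dim probe sets left out or with trend and robust settings.

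Pericytes wrap the same capillaries, and their 13 genes had a median of -0.23, against -0.25 for the endothelial members. The pericyte median depended on single arrays, at -0.08 without cKO 2 and -0.11 without WT 2, and was -0.20 without both arrays numbered 3. Unadjusted p was below 0.05 for 2 lower and 2 higher genes of that list, against 3.8% and 4.74% of all genes, and 0 passed. Abcc9, a potassium channel subunit of pericytes, was at -1.05 (SE 0.22) and Rgs5 at -0.60 (SE 0.18), whereas Ndufa4l2 was at 1.26 (SE 0.20) and Anpep at 0.94 (SE 0.15). Anpep was between 3.09 and 5.65 in WT, below the pseudocount, so its size is set by that value. The defining receptor gene Pdgfrb was at -0.06 with overlap. Microglia and macrophage genes, other cells that enter the cortex from outside, had a median of -0.06 over 13 genes with 0 at an unadjusted p under 0.05, where a share of 3.8% lower and 4.74% higher over all genes leaves few to be found. That median ran from -0.18 without cKO 3 to 0.0053 without cKO 2, and was -0.13 without both arrays numbered 3. The differences between these lists were not tested.

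**Figure D4:**
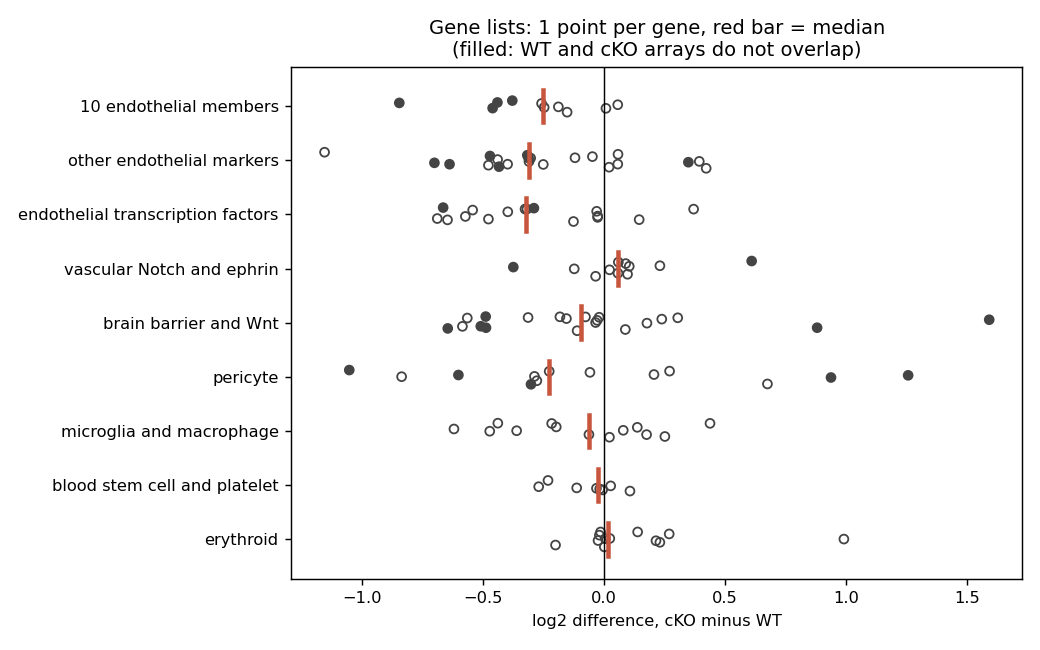
Log2 difference (cKO minus WT, x axis) of each measured gene in 9 gene lists, 1 point per gene, with the list median as a red bar and filled points where the WT and cKO arrays do not overlap. The medians of the endothelial members (-0.25), other endothelial markers (-0.31), endothelial transcription factors (-0.32) and pericyte genes (-0.23) lie below 0. Those of the other lists run from -0.09 to 0.06 with all 6 arrays, among them the erythroid (0.01) and blood stem cell and platelet (-0.02) lists. Medians moved when single arrays were left out, among them those of the transcription factor, pericyte, microglia, erythroid and platelet lists. That of the endothelial members moved too, to -0.34 without WT 2.

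Markers of blood, which the vessels carry, were high on both arrays numbered 3, and markers of the meninges, a tissue rich in vessels, on cKO 3. The summed intensity of 12 erythroid genes was 71303 on WT 3 and 76007 on cKO 3, and from 13232 to 19728 on the other 4 arrays. Most of it came from the globins Hbb-y (41223 on WT 3) and Hba-x. Tfrc, of the same list, was lowest of its genotype on WT 3 (1665) and cKO 3 (1676). Of the 12 genes 0 had groups without overlap. Over all genes 7.64% had every cKO array below every WT array and 7.9% had every cKO array above. A count of 0 among so few genes is near that background. Their median difference of 0.01 depended on single arrays, from -0.50 without cKO 3 to 0.47 without cKO 2. It was 0.02 without both arrays numbered 3. The sum of 12 meningeal genes was 2530 on cKO 3, against 505 and 591 on the other cKO arrays and 678 to 1105 in WT, with 4 genes below 0 and 8 above. The meningeal median of 0.21 turned to -0.36 without cKO 3, -0.39 without both arrays numbered 3, -0.02 without WT 2 and -0.11 with array weights. The sum of 8 blood stem cell and platelet genes was 2011 to 3193 in WT and 1716 to 2934 in cKO, with a median difference of -0.02 that was 0.16 without WT 3, -0.31 without cKO 3 and -0.10 without both. In contrast, the sum of the 10 endothelial genes on WT 3 and cKO 3 lay between those of the other arrays of each genotype. Without both arrays the median of the 10 was -0.24, and Emcn, Cldn5 and Esam were at -0.44, -0.40 and -0.34.

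**Figure D5:**
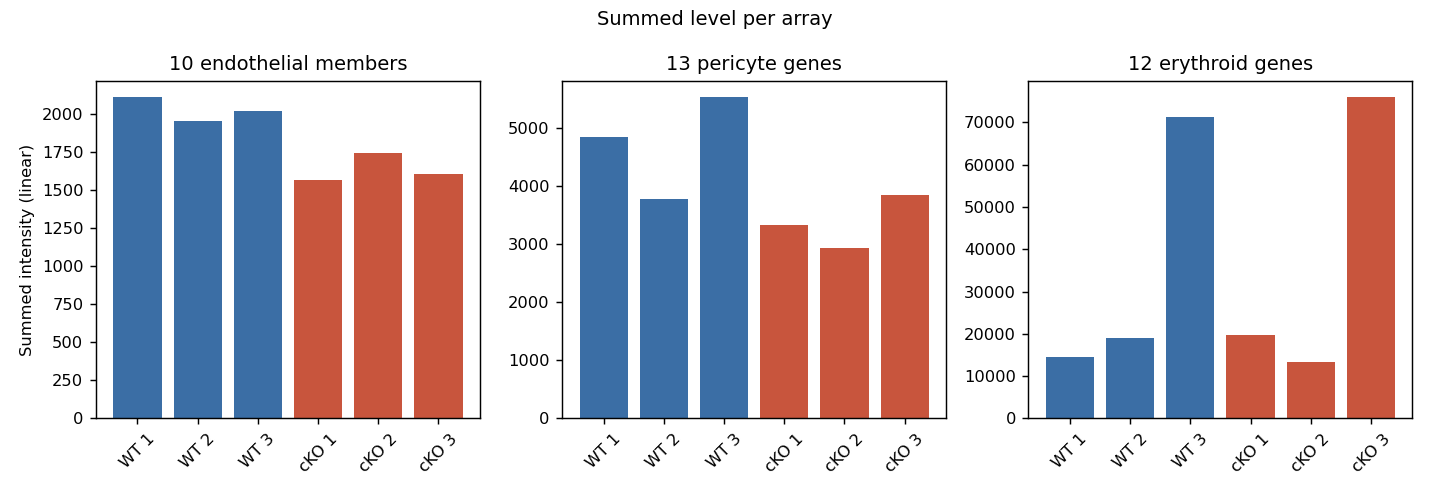
Summed intensity (linear scale, from 0) per array of the 10 endothelial genes, 13 pericyte genes and 12 erythroid genes, with WT in blue and cKO in red. The endothelial sum is 1949 to 2108 in WT and 1568 to 1742 in cKO, while the erythroid sum is high on WT 3 and cKO 3 alone.

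Genes of the dissected tissue itself were clearly measured on all arrays, such as Neurod6, of young projection neurons, at 13756 or more, and Pax6, of radial glia, at 2557 or more. Of 12 cortical genes, 2 lay lower with unadjusted p below 0.05, namely Emx2 (-0.83, SE 0.15) and Eomes (-0.63, SE 0.15), and 0 were higher, against 3.8% and 4.74% of all genes. Of the 12, 0 passed the adjusted threshold in the main setting and 1 with dim probe sets left out or with trend and robust settings. Emx2 is the gene after which the Cre line is named.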

How the data were processed

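Each deposited value is the linear intensity of 1 probe set on 1 array, made with the Affymetrix Expression Console per the submitters' processing notes. Neither its version nor the summary method is given in the sources used here. Means after trimming 2% at each end were 497.2 to 497.7 on all 6 arrays, so the authors' values share a scale. Detection calls were not used here.

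All 45037 probe sets were taken to log2(intensity + 16) and fitted with genotype as the only term by lmFit and eBayes of limma 3.58.1 in R 4.3.3. P-values were adjusted by Benjamini-Hochberg over all probe sets, with a threshold of 0.05. The differences are cKO minus WT with moderated standard errors, and 3 arrays per group limit the precision. The platform annotation gave 1 gene to 34945 probe sets, several to 932 and none to 9160. Each of the 18193 genes was represented by its brightest probe set (largest mean log2 value), with p from the fit over all probe sets. Related genes came from written lists, of which the text names up to 4 by smallest p, direct partners of the members, and others named after their values were seen. The members and lists were chosen with earlier results of these data known. Replicates are separate samples per the labels. The fit was tested on simulated arrays.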

Additional observations from a re-analysis of the deposited data

How the results depend on the processing

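The median over the 10 genes stayed below 0 under every alternative listed here, and no member probe set passed the adjusted threshold in any of them. These were quantile normalization, centred medians, pseudocounts of 1 and 64, dim probe sets left out (which removes Tie1, so no median over the 10 was formed), trend and robust eBayes, array weights, the replicate block, the arrays numbered 3 as a second term or left out, each array left out in turn, the gene table on its own, and the mean over a gene's probe sets. Leaving out 1 array moved the median from -0.35 to -0.21. The number of probe sets called over the whole array, 124, was 48 with a pseudocount of 1, 205 with 64, 252 without dim probe sets, 257 with trend and robust settings, 7 with the replicate block, 8 without both arrays numbered 3, and 19 to 36 with 1 array left out. Fits on fewer arrays, or with more terms, have fewer degrees of freedom. For the other settings the cause was not tested. Deviations from the group means of same-numbered arrays correlated at 0.07, 0.17 and 0.37 across genes, which are not independent. WT 1 correlated best with cKO 2, so the numbers were not taken to pair the samples in the main fit, although WT 3 and cKO 3 stood apart together. The replicate block is the setting that did pair same-numbered arrays, by adding the array number as a term.

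Signs turned for 4 probe sets near 0, and the cause was not tested. Flt1 1440926_at was -0.049 with quantile normalization, -0.038 with centred medians, -0.0097 with a pseudocount of 64 and -0.078 with array weights, and ran from -0.29 to 0.18 with 1 array left out. Eng 1417271_a_at was -0.024, -0.042 and -0.014 with quantile normalization, centred medians and array weights, -0.091 without both arrays numbered 3, and ran from -0.079 to 0.084 with 1 left out. Pecam1 was -0.035 without both arrays numbered 3 and ran from -0.023 to 0.14 with 1 left out, and Flt1 1419300_at ran from -0.27 to 0.040. Dim signals limit the precision of Tie1, whose cKO arrays lie near the pseudocount.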
